A study of Homo sapiens with 6 samples.

Results

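MIR200BHG is the long noncoding RNA gene that hosts the microRNAs miR-200b, miR-200a and miR-429. Its methylation was described from 3 deposited lists of differentially methylated regions, each measured by reduced representation bisulfite sequencing (RRBS). The members are the listed regions that overlap chromosome 1: 1160000-1171000 on hg38. They were chosen by position, in a locus picked because the lists held regions there, so their levels and differences are given as a description with no test. The window held 9 of the 4344 listed regions, 4 of 1483 in pair 1, 3 of 1433 in pair 2 and 2 of 1428 in pair 3. Merging regions that overlap between pairs left 6 distinct regions, of 3313 in all. All 9 lay inside MIR200BHG, so the name of the locus fits the positions.

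The cells were HepG2, an established human liver tumour line that the labels describe as hepatocellular carcinoma and that is also described as derived from a hepatoblastoma. One group carried a lentivirus that overexpresses DNMT3A, an enzyme that sets new methyl groups on CpG cytosines. The control group, labelled WT for genotype, carried a control lentivirus, so infection is common to both groups. Each group had 3 libraries, numbered 1 to 3, and each list compares 1 overexpressing with 1 control library, matched by number. The promoter of the transgene, its isoform and whether the cells were 1 clone are not stated in the labels. The libraries are not stated to come from separate cultures, so their spread may be technical. DNMT3A protein or RNA was not measured in these files, so the overexpression and the liver identity of the cells could not be checked from them. Mapped reads ranged from 25.8 to 29.9 M in overexpressing libraries and from 26.9 to 29.3 M in controls. The mapping rate was 76.25% to 76.88% in overexpressing libraries and 75.96% to 76.20% in controls, which do not overlap. The MspI cutting efficiency did not overlap either, at 99.61% to 99.64% in overexpressing libraries and 99.65% to 99.66% in controls. The part of these measures in the values below was not tested. No read depth is given per region, so depth behind each level is unknown and no interval is printed.

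MicroRNAs pair with messenger RNAs through their seed, bases 2 to 8 of the mature strand, and lower the output of those messages. The miR-200 family is known for keeping cells epithelial, by acting on ZEB1 and ZEB2, which are repressors of E-cadherin. ZEB1 and ZEB2 in turn bind E-box letters in the promoters of the miR-200 genes, which makes the pair of regulators mutually repressive. Methylation of CpG-rich DNA at the miR-200 loci has been studied in carcinoma cells that lose epithelial features.

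The family's mature 3p strands are shown because their seeds sort the products of this locus into both seed groups of the family. Seeds are in capitals, and sequences are from RefSeq on GRCh38.p14.
hsa-miR-200b-3p: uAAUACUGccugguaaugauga
hsa-miR-429: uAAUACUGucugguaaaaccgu
hsa-miR-200c-3p: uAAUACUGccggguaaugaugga
hsa-miR-200a-3p: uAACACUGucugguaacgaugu
hsa-miR-141-3p: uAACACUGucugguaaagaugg
Of 2370 mature miRNA names in the table, 3 carry the seed of miR-200b-3p and 2 carry that of miR-200a-3p, and all are in the lines above. Counted from 1 at the 5′ end, the seeds differ by U4C, with the miR-200b base first. The strands of miR-200b and miR-429 differ at 6 of 22 positions, none of them in the seed. miR-200c and miR-141, the partners with the same seeds, come from MIR200CHG on chromosome 12.

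MIR200BHG spans 7462 bp, at chromosome 1: 1162877-1170338 on the forward strand, in the RefSeq table of GRCh38.p14. The hairpin gene MIR200B begins 4227 bases after the start of the host, MIR200A 4986 bases and MIR429 6128 bases after it. Between the hairpins lie 664 bases from MIR200B to MIR200A and 1052 bases from MIR200A to MIR429. Exons and introns of the host were not analysed here, so regions are placed by distance only. The 6 distinct regions covered 588 bp, which is 7.88% of the host's length, and the first lay far from the other 5. Region 1 began 1145 bases after the start of the host, and regions 2 to 6 lay between 3988 and 6220 bases after it, around the 3 hairpins. Regions are numbered here from the start of the host onward.

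Every listed region of MIR200BHG had a higher methylation level in the DNMT3A-overexpressing library than in its control. That is 9 of 9 rows, in lists where the higher regions made up 82.1% of pair 1, 81.7% of pair 2 and 81.1% of pair 3. The lists hold only called regions, and the locus was picked for holding them, so nothing is read from that count. The listed differences, overexpressing minus control, ran from 0.182 to 0.328 on the fraction scale, with a median of 0.274. The median over all 3546 higher regions of the lists was 0.265. Weighted by CpG sites, the members averaged 0.714, 0.497 and 0.613 in overexpressing libraries 1, 2 and 3, against 0.426, 0.269 and 0.297 in control libraries 1, 2 and 3. The pairs list different regions, so these averages do not compare the same DNA between pairs. The difference averaged 0.277 ± 0.0448 (SD, n = 3 pairs), with 0.288 in pair 1, 0.228 in pair 2 and 0.315 in pair 3. This SD mixes unlike regions with the spread between pairs. Pair 1 supplied 4 of the 9 regions, and without it 5 were left.

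**Figure D1:**
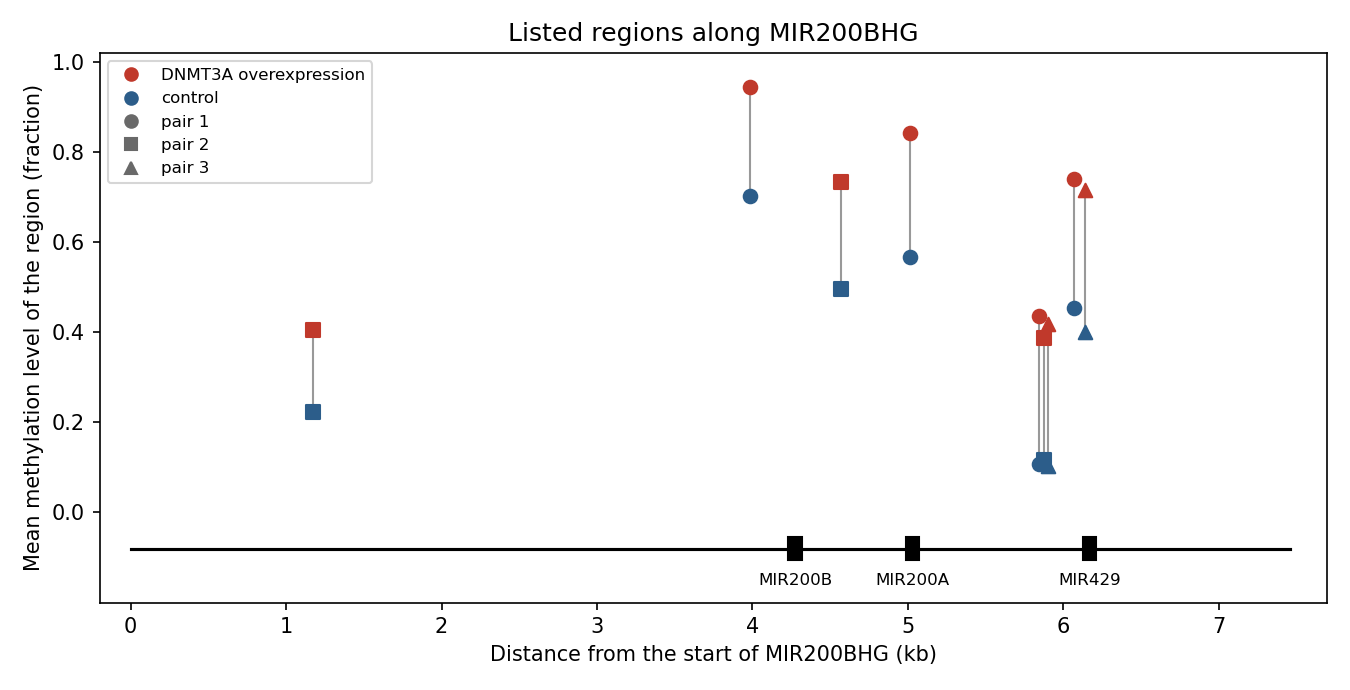
Mean methylation level (fraction, vertical axis) of the 9 listed regions against distance from the start of MIR200BHG (kb, horizontal axis). Red symbols are DNMT3A-overexpressing libraries, blue symbols their controls, shapes mark the pair, a grey line joins the libraries of a pair, pairs are shifted slightly sideways, and black boxes are the hairpins. All 9 red symbols lie above their blue partners, and control levels run from 0.103 before MIR429 to 0.702 before MIR200B.

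Region 5, between MIR200A and MIR429, was the 1 distinct region listed in all 3 pairs. Across the whole series 8.21% of distinct regions were listed in all 3 pairs. It lies at chromosome 1: 1168694-1168809, with 116 bp and 10 CpG sites, and ends 195 bases before the MIR429 hairpin. Its boundaries were identical in the 3 lists, as were those of 51 of the 272 regions listed in all pairs. Its level was 0.437, 0.386 and 0.418 in overexpressing libraries 1, 2 and 3, against 0.109, 0.117 and 0.103 in control libraries 1, 2 and 3. Every overexpressing library lay above every control, with a gap of 0.270 between the lowest overexpressing and the highest control level. The means were 0.414 ± 0.0255 in overexpressing libraries and 0.109 ± 0.00696 in controls (SD, n = 3 each), a ratio of 3.78. The difference was 0.304 ± 0.0306 (SD, n = 3 pairs), smallest in pair 2 at 0.270 and larger in pairs 1 and 3 at 0.328 and 0.315. Each list called this region, so the lack of overlap between the groups follows in part from the choice. The share of the 272 regions that also lack overlap is not given here, so nothing is read from it. Among the 264 regions that were higher in all 3 pairs it ranked 97th by mean difference, where the median was 0.280. By control level it ranked 96th from the lowest, where the median was 0.148.

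**Figure D2:**
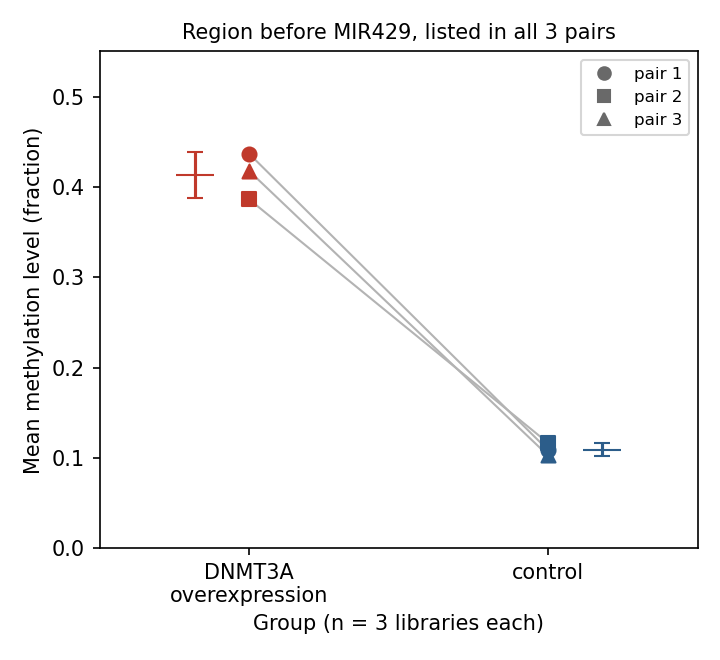
Mean methylation level (fraction, vertical axis) of the region listed in all 3 pairs, in overexpressing libraries (left) and controls (right). Symbols are libraries, with shapes for pairs and grey lines joining a pair, and the bars beside them are the mean and SD of 3 libraries. Overexpressing libraries stood between 0.386 and 0.437 and controls between 0.103 and 0.117.

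Region 6 covered the MIR429 hairpin and was listed in pairs 1 and 3. Regions listed in at least 2 pairs made up 21.8% of all distinct regions, and at MIR200BHG they were 2 of 6. In pair 1 it spanned chromosome 1: 1168937-1169019, 83 bp with 8 CpG sites, and took in the first 15 bases of the hairpin. In pair 3 it spanned chromosome 1: 1168878-1169097, 220 bp with 19 CpG sites, and took in all 83 bases of the hairpin. The pair 1 region lies wholly within the pair 3 region and makes up 37.7% of it. The level was 0.741 and 0.715 in overexpressing libraries 1 and 3, against 0.454 and 0.400 in control libraries 1 and 3. Both overexpressing levels lay above both control levels, with differences of 0.287 within pair 1 and 0.315 within pair 3. Both lists called a region here, so this order follows in part from the choice. The share of other regions with this order is not given here, so nothing is read from it. The levels of pairs 1 and 3 come from stretches of unlike length. No region was called over MIR429 in pair 2, and the levels of that pair there are not in the list.

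The MIR429 hairpin is shown because it lies under a listed region in both of these pairs. Its CpG dinucleotides are in capitals, on the forward strand at chromosome 1: 1169005-1169087 of GRCh38.p14.
MIR429: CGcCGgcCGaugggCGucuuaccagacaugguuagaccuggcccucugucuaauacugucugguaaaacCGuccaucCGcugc
The hairpin holds 6 CpG dinucleotides and 1 CCGG, the site that MspI cuts in RRBS. By position, the pair 1 region reached 4 of these CpGs and the pair 3 region reached all 6, including the 1 within mature miR-429. Each listed level is a mean over its region, so the levels of single CpGs are not known. The hairpins of the partner locus, MIR200C and MIR141, hold 3 CpGs each, with 1 CCGG in MIR200C and 2 in MIR141. No list had a region within 1 kb of them or of MIR200CHG, and the levels there are not in the lists.

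Regions 5 and 6 were close neighbours with unlike levels. They were separated by 127 bases in pair 1 and by 68 bases in pair 3. Region 6 stood above region 5 by 0.304 in overexpressing library 1 and 0.297 in overexpressing library 3, and by 0.345 in control library 1 and 0.297 in control library 3. The low and the high stretch thus kept their order in both groups. The listed differences were 0.287 at region 6 and 0.328 at region 5 in pair 1, and both were 0.315 in pair 3.

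Region 4 lay over the MIR200A hairpin and was listed in pair 1 alone. It spans chromosome 1: 1167887-1167961, 75 bp with 11 CpG sites, and overlaps 66 of the 90 bases of the hairpin. The level was 0.842 in overexpressing library 1 and 0.567 in control library 1, a difference of 0.274. The region starts inside miR-200a-5p and takes in the whole of miR-200a-3p, each of which holds 1 CpG. The 5p strand is shown for that CpG, which lies in a CCGG just after the seed in capitals.
hsa-miR-200a-5p: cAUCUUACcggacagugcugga
The first listed position is the G of this CpG, which is the cytosine on the opposite strand. The listed level is a mean over the region, so the levels of these single CpGs are not known.

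Regions 2 and 3 lay on either side of the MIR200B hairpin, which no listed region overlapped. Region 2 ended 188 bases before it, at chromosome 1: 1166865-1166915 with 51 bp and 5 CpG sites, and was listed in pair 1 alone. Its level was 0.944 in overexpressing library 1 and 0.702 in control library 1. These are the top levels of the 9 regions in each group, and 98.4% of the 1217 higher regions of pair 1 had a lower control level. Region 3 began 215 bases after the hairpin, at chromosome 1: 1167414-1167477 with 64 bp and 9 CpG sites, and was listed in pair 2 alone. Its level was 0.733 in overexpressing library 2 and 0.496 in control library 2, a difference of 0.237.

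Region 1 was the 1 region in the first part of the host gene, listed in pair 2 alone. It spans chromosome 1: 1164022-1164083, 62 bp with 11 CpG sites. The level was 0.405 in overexpressing library 2 and 0.222 in control library 2, and the difference of 0.182 was the smallest of the 9. It had the most CpG sites for its length, 17.7 per 100 bp, against 8.62 to 14.7 per 100 bp at the other members. Sites are taken as cytosines of both strands, so these are not counts of CpG dinucleotides. A region that 1 list holds and the others lack was not called in the others, and its level in those libraries is not known.

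The promoter of MIR200BHG is shown because it is CpG-rich and has MspI sites, and no list held a region in it. Its levels are not in the lists, so whether it was read or changed is unknown. The promoter runs from 250 bases before to 50 bases after the RefSeq start, on the forward strand at chromosome 1: 1162627-1162926 of GRCh38.p14. Capitals mark the E-box letters CACCTG, which were searched together with their reverse complement CAGGTG.
MIR200BHG promoter: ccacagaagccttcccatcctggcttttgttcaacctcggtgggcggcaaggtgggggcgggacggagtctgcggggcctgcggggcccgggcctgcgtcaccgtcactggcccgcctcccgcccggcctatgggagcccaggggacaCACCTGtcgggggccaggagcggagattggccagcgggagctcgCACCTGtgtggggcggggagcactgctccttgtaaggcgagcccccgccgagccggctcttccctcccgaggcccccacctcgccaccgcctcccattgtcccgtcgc
The E-box letters occur at 2 places, which begin at -102 and -58 from the start. Of 35116 promoters of this length, 20.6% hold the motif on either strand and 3.49% hold it at 2 or more places. The window has 26 CpGs, more than 69.9% of the promoters have, and 3 CCGG sites, a motif that 63.1% of promoters hold. A match in letters is a description and does not show a bound site. Of all 35116 promoter windows 237, or 0.675%, met a listed region, so a promoter without one is the common case. The window also lies inside the extent of another noncoding gene, LOC107985736, which ends at position 1162947.

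Within their own lists the members lay in the middle range by difference and spread widely by control level. The difference exceeded that of 19.2% to 70.8% of the list's higher regions. The control level of the 5 members in regions 2, 3, 4 and 6 exceeded that of 79.8% to 98.4% of them, and that of the other 4 members 27.0% to 55.7%. The control level was above the median of the list's higher regions at 6 of 9 members, with medians of 0.184, 0.192 and 0.209 in pairs 1, 2 and 3. The 3 members below were region 5 in each pair. The difference was above the list's median at 6 of 9 members, and CpG sites per 100 bp at 3 of 9. Region 5 had 8.62 CpG sites per 100 bp, while the higher regions of all lists had a median of 10.8. By the authors' area score, whose definition is not stated, the highest place was that of region 6 in pair 3, 212th of 1158 higher regions. The lowest was that of region 2 in pair 1, 1132nd of 1217.

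**Figure D3:**
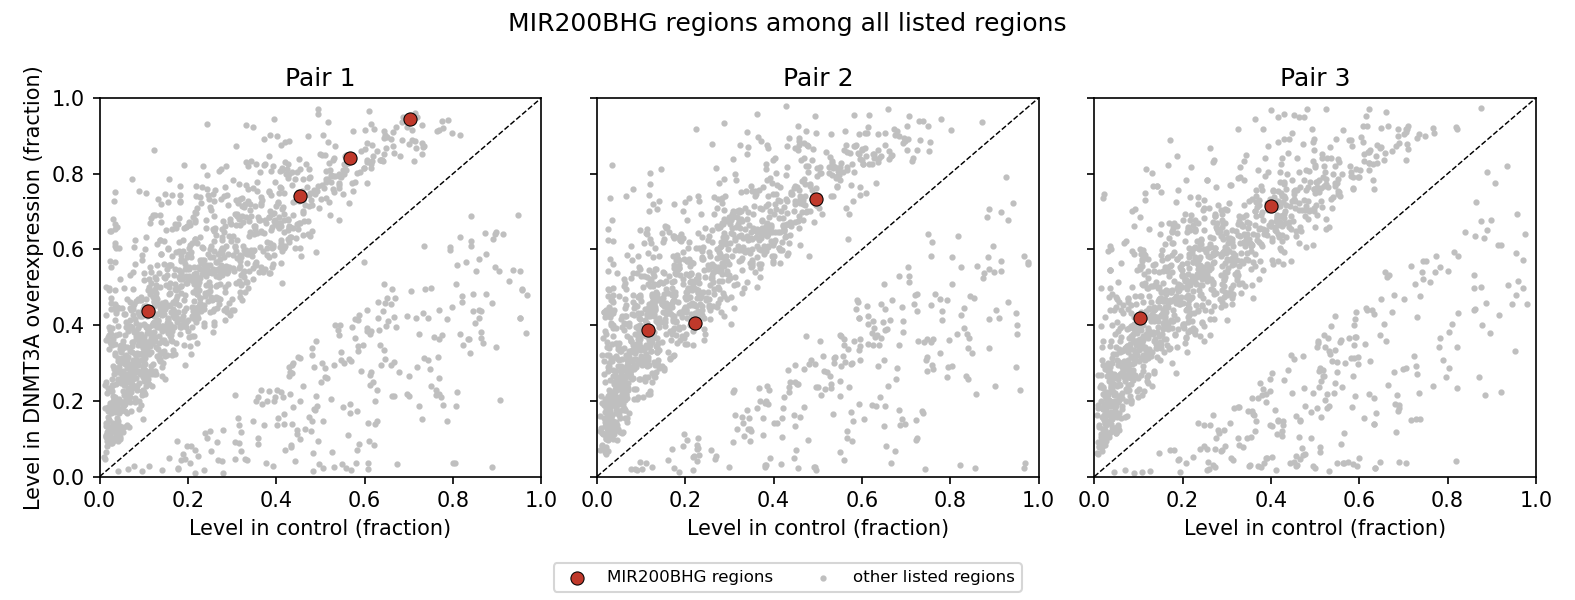
Level in the overexpressing library (fraction, vertical axis) against level in the control library (fraction, horizontal axis) for all listed regions of pairs 1, 2 and 3, with MIR200BHG regions in red and the others in grey. The dashed line marks equal levels, and all 9 red points lie above it, with control levels from 0.103 to 0.702.

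No listed region crossed a border of the window. After the window the next listed region lay 73094 bases on, in pair 3 near C1QTNF12, at 0.776 in overexpressing library 3 and 0.549 in control library 3. Before the window the nearest lay 1344 bases away, in pair 3, at 0.689 in overexpressing library 3 and 0.446 in control library 3. A region of pair 1 overlapped it, at 0.679 in overexpressing library 1 and 0.398 in control library 1. A further one of pair 2 lay 1709 bases away, at 0.217 in overexpressing library 2 and 0.0569 in control library 2. These 3 lie within the noncoding genes LOC107985736 and LOC124903820, upstream of the host, and all were higher in the overexpressing library.

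Few genes as short as MIR200BHG held as many distinct regions. With 1 kb on each side, 23 of the 2354 protein-coding and long noncoding genes with a region held 6 or more. Among the long noncoding ones these were MIR200BHG, MIRLET7BHG, the host of let-7b, and HOXA-AS3, with 6 each. MIR200BHG is 7462 bp long, MIRLET7BHG 27932 bp and HOXA-AS3 15565 bp. Of genes no longer than MIR200BHG, it was the 1 with 6 or more. The locus was picked with this count known, so it is a description.

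Among all miRNA genes a listed region over the hairpin was uncommon. A listed region met 5 of the 1913 hairpin genes of RefSeq, namely MIR429, MIR200A, MIR3176, MIR7846 and MIR6720. MIR3176 was listed in all 3 pairs, at a mean of 0.393 in overexpressing libraries and 0.125 in controls. MIR6720, listed in pair 2, was the 1 with a lower level, 0.0573 in overexpressing library 2 and 0.232 in control library 2. RRBS covers a part of the genome, and how many hairpins it covered is unknown. Of 87 genes named as miRNA hosts, 5 had a region within 1 kb, or 5.75%, against 6.13% of all protein-coding and long noncoding genes. The 5 include MIR200BHG, which was picked for holding regions. The 6.13% pools both kinds of gene, and 581 of the 2354 genes with a region were long noncoding. The share for long noncoding genes alone is not given here, so the 5.75% is not read as a match. MIR200BHG, MIR4713HG and MIRLET7BHG were higher in every listed region, whereas MIR9-2HG and MIR3667HG, listed in 1 pair each, were lower. Of all genes with a region, 73.1% had higher regions only.

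The regions most like region 5 in their 6 library levels were in NHERF2, TMEM175, LRP5 and MAPK6 and at a place on chromosome 8 without a gene within 1 kb. Likeness was the root mean square difference over the 6 libraries, among 271 other regions listed in all pairs, where its median was 0.114. It was 0.0149 for NHERF2, a scaffold protein gene, at chromosome 16: 2033471-2033630. The means there were 0.402 ± 0.0367 in overexpressing libraries and 0.104 ± 0.00459 in controls (SD, n = 3 each). It was 0.0168 for TMEM175, a lysosomal potassium channel gene, at chromosome 4: 948402-948594, and 0.0211 for LRP5, a WNT coreceptor gene, at chromosome 11: 68321552-68321652. For the chromosome 8 region and for MAPK6 it was 0.0293 and 0.0297.

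Of the genes that miR-200 is known to target, 5 of 29 had a listed region within 1 kb, all higher in the overexpressing library. That is 17.2%, against 6.13% of all protein-coding and long noncoding genes, and of all genes with a region 73.1% had higher regions only. The list was chosen with earlier results of these data known, so the share is a description. The 6.13% includes long noncoding genes, and the share for protein-coding genes alone is not given here. ZEB1 and ZEB2, the main targets, had no listed region, and their levels are not in the lists. TGFB2, a TGF-beta ligand gene, stood at 0.749 in overexpressing library 3 and 0.422 in control library 3. FN1, the fibronectin gene, had overlapping regions in pairs 1 and 2, 961 and 879 bases outside the gene. They stood at 0.242 and 0.436 in overexpressing libraries 1 and 2, against 0.0284 and 0.0179 in control libraries 1 and 2. PTPN13, a phosphatase gene, stood at 0.591 in overexpressing library 2 and 0.116 in control library 2. MAML2, a Notch coactivator gene, stood at 0.328 in overexpressing library 3 and 0.158 in control library 3. SHC1, an adaptor protein gene, stood at 0.461 in overexpressing library 3 and 0.257 in control library 3.

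Epithelial genes, the other side of the circuit, had a region at 10 of 34, or 29.4%. The share of all protein-coding and long noncoding genes was 6.13%, and this list too was chosen with earlier results of these data known. Of the 10, 7 were higher, 1 lower and 2 in both directions, a share of higher genes near the 73.1% of all genes with a region. LLGL2, a cell polarity gene, had the same 2 regions listed in pairs 1 and 2. The first stood at 0.372 and 0.661 in overexpressing libraries 1 and 2, against 0.0827 and 0.155 in control libraries 1 and 2. The second stood at 0.354 and 0.381 in overexpressing libraries 1 and 2, against 0.118 and 0.129 in control libraries 1 and 2. EPCAM, an epithelial adhesion gene, had separate regions in pairs 2 and 3, which cover different DNA. The region of pair 2 stood at 0.424 in overexpressing library 2 and 0.287 in control library 2, and that of pair 3 at 0.269 in overexpressing library 3 and 0.121 in control library 3. CLDN6, a tight junction gene, had overlapping regions in pairs 1 and 3. They stood at 0.369 and 0.448 in overexpressing libraries 1 and 3, against 0.125 and 0.159 in control libraries 1 and 3.

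Among the epithelial genes listed in 1 pair, CLDN3, PATJ and the neighbours KRT8 and KRT18, which share a region, were higher. PKP3, a desmosome gene, was lower, at 0.390 in overexpressing library 2 and 0.658 in control library 2. GRHL2, an epithelial transcription factor gene, had a higher and a lower region in pair 3, and OVOL1, a repressor of ZEB1, had a lower region in pair 2 and a higher one, at another place in the gene, in pair 3. CDH1, the E-cadherin gene, had no listed region.

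Of 30 mesenchymal genes and factors of the epithelial-mesenchymal transition, 4 had a region, or 13.3%. The share of all protein-coding and long noncoding genes was 6.13%, and this list was chosen with earlier results of these data known as well. Regions were higher only at 3 of the 4 and at 73.1% of all genes with a region. FN1 and TGFB2 are shared with the target list. MMP9, a matrix protease gene, stood at 0.375 in overexpressing library 3 and 0.262 in control library 3. PRRX1, a homeobox gene with a region 979 bases outside it, stood at 0.346 in overexpressing library 1 and 0.824 in control library 1. Genes differ in length and in how much of them RRBS reads, so shares of genes with a region are not set against each other by a test. The 6.13% pools protein-coding genes with long noncoding ones, and 581 of the 2354 genes with a region were long noncoding. The share for protein-coding genes alone is not given here.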

How the data were processed

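DNA methylation was measured by RRBS in 6 HepG2 libraries, grouped by the labels' titles. Per the labels' protocols, DNA was cut with MspI, ligated to methylated adapters and bisulfite treated. Per the submitters' processing notes, positions are on hg38. No aligner, region caller or threshold is named in the sources used here. Per the file headers, the authors gave the mean level of each region as a fraction, the count of its CpG sites, the difference and an area score, and for each library the counts of total and mapped reads and the mapping rate in percent. The deposited differences equal overexpressing minus control.

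With Python 3.11.15 and pandas 2.3.3, regions overlapping by at least 1 bp were merged across lists, means within a pair were weighted by CpG sites, and genes within 1 kb came from RefSeq GRCh38.p14. Coordinates count from 1. Of 205 region starts and 192 region ends that fell in RefSeq promoter or hairpin sequence, all lay on the C or G of a CpG. In 88 of 113 regions inside such sequence the site count exceeded the number of CpGs, and in all 113 it was at most the cytosines of both strands. It equalled them in 71 of the 113, so some regions list fewer sites than their sequence holds. A site is therefore taken as a cytosine, with both strands counted.

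No test was made, since the locus was picked with its values known. The members and gene lists were chosen with earlier results of these data known. Named genes are the host and its miRNAs, the nearest regions outside the window, the 5 regions most like the shared one and every gene of the lists with a region. Outside that rule, and chosen after the values were seen, are genes without a region (ZEB1, ZEB2, CDH1, MIR200CHG, MIR200C and MIR141) and genes found by counting regions (HOXA-AS3, MIR3176, MIR7846 and MIR6720). Alternatives tried are the weighting, the window, the scale, minimums of sites and difference, the overlap and leaving out each pair.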

Additional observations from a re-analysis of the deposited data

How the results depend on the processing

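The mean difference at the MIR200BHG regions, 0.277, was 0.276 with unweighted regions and 0.258 to 0.302 with a replicate number left out. The RefSeq extent of the gene with 1 kb on each side gave the same 9 regions. On the logit scale the mean difference was 1.36 ± 0.220 (SD, n = 3 pairs), which is another unit with the same direction. That SD too mixes unlike regions with the spread between pairs. The region listed in all pairs gave 0.292 to 0.322 with a replicate number left out. Of the 9 regions 5 to 7 were left without 1 replicate number, 8 had a difference of at least 0.2 and 6 had at least 10 CpG sites. The count of regions listed in all pairs stayed at 1 when both regions had to overlap by 50% or more. In a check chosen after seeing the data, regions listed in at least 2 pairs were 1 in place of 2 under that overlap, because the overlap covers 37.7% of the longer region over MIR429. They were 1 to 2 with a replicate number left out, and 1 without replicate 1 or without replicate 3. With no read depth per region, how precise each level is cannot be stated.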
